A study of Homo sapiens with 6 samples.

Results

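The genes described here encode 10 secreted proteins of the acute-phase response and of innate defence at epithelial surfaces: SERPINA3, SAA1, SAA2, C3, CFB, CHI3L1, LCN2, SERPINA5, SLPI and PI3. They were taken by symbol from a table of counts per Entrez gene, and all 10 were found among its 23459 genes. The set was proposed because several of its members were higher after YAP/TAZ depletion in these same libraries, with a high value in one control library. The direction and size of the siYAP/TAZ difference in these genes, and the height of that control library, are therefore given as description. No p-value is given for a single gene of the set, and counts of these genes past a threshold stand beside the share of all genes that passed it, with nothing read from them.

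The cells were MCF10A, an untransformed human mammary epithelial line, and the columns of all 6 libraries are labelled WT. They were grown with horse serum, insulin, hydrocortisone, cholera toxin and EGF, so the medium of both groups held a glucocorticoid and a growth factor. The siRNA was transfected at 20 nM. It was a non-targeting control in 3 libraries (siCtrl) and was directed against both YAP and TAZ in the other 3 (siYAP/TAZ), and 3′ mRNA-Seq libraries were made from total RNA. YAP1 and WWTR1 encode YAP and TAZ, transcriptional co-activators that bind DNA through TEAD factors.

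In the acute-phase response, cytokines of the IL-6 and IL-1 families reach a responding cell, STAT3, C/EBP and NF-kappaB factors are activated, and secreted proteins such as serum amyloid A, complement and serpins are made in quantity. The liver is the main source for plasma, but epithelia make many of the same proteins locally. Glucocorticoids enhance the induction of several of these genes, and the epithelial inhibitors SLPI and elafin limit damage by neutrophil proteases.

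The labels of 2 libraries contradict each other on the group, and titles and descriptions also differ in replicate numbers. The description field, which also names the columns of the count table, was used for group and replicate number. Under it, replicate 2 of siCtrl is titled as a depleted sample, and replicate 2 of siYAP/TAZ as a control, and their genotype entries follow the titles. Their titles number them as replicates 1 and 3. In addition, siCtrl replicate 3 and siYAP/TAZ replicate 1 are each titled as replicate 2 of their group. YAP1 was 189, 204 and 210 CPM (counts relative to the TMM-scaled library size) in siCtrl replicates 1, 2 and 3, and 116, 118 and 112 CPM in siYAP/TAZ. WWTR1 was 109, 109 and 102 CPM in siCtrl, against 70.5, 67.1 and 59.8 CPM in siYAP/TAZ. Both groups are separate in both targets, so siCtrl replicate 2 and siYAP/TAZ replicate 2 sit with the groups of the description. In a quasi-likelihood test (edgeR, Benjamini-Hochberg adjustment over 12510 genes), YAP1 fell by 0.80 on the log2 scale (SE 0.12, adjusted p = 0.0138) and WWTR1 by 0.69 (SE 0.13, adjusted p = 0.0311). The call of YAP1 was lost when siCtrl replicate 3 (0.0988), or replicate 2 (0.0606) or 3 (0.112) of siYAP/TAZ, was left out, and WWTR1 passed without siCtrl replicate 2 (0.0110) but not without any other library (0.0602 to 0.176). Of 7 tested genes among 8 known YAP/TAZ targets, 5 fell, among them CCN2 (log2 fold change -3.35), CCN1 (-2.41), THBS1 (-2.12) and AMOTL2 (-1.79). Each of these 4 calls was lost without siCtrl replicate 3 (0.0703 to 0.132) and without 1 to 3 of the other libraries, none of them siCtrl replicate 2.

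Library totals were 3175149 to 4317286 counts, and 3 counts, the limit set here for a low level, correspond to 0.680 to 0.992 CPM. The markers of basal mammary epithelium were detected for 10 of 10 genes, and their summed level was 3312 to 3603 CPM in siCtrl and 2422 to 2605 CPM in siYAP/TAZ. Hepatocyte markers summed to 0.503 to 4.94 CPM in siCtrl and 1.81 to 4.63 CPM in siYAP/TAZ, with APOA2, TTR and FGA at 0 and 9 of 10 at no more than 3 counts in any library. Leukocyte markers summed to 210 to 270 CPM in siCtrl and 246 to 295 CPM in siYAP/TAZ, nearly all of it CSF1R, with TYROBP and CD79A at 0 and 6 of 11 genes at no more than 3 counts. Luminal progenitor markers summed to 240 to 464 CPM in siCtrl and 248 to 277 CPM in siYAP/TAZ, with ELF5 at 0. Endothelial markers summed to 5.74 to 7.29 CPM in siCtrl and 8.61 to 15.9 CPM in siYAP/TAZ, and fibroblast markers to 179 to 213 and 163 to 187 CPM, with COL1A2, COL3A1 and THY1 at 0. The part of the shifts in epithelial and endothelial markers in the values below was not tested.

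The 10 genes together held 0.0885%, 0.236% and 0.0627% of all counts in siCtrl replicates 1, 2 and 3, with 95% Wilson intervals of 0.0854% to 0.0917%, 0.231% to 0.241% and 0.0602% to 0.0652%. In siYAP/TAZ they held 0.175% (0.172% to 0.179%), 0.371% (0.364% to 0.378%) and 0.195% (0.190% to 0.199%). Replicate 2 was the highest of its group in both conditions, and siCtrl replicate 2 lay above siYAP/TAZ replicates 1 and 3. SAA1 and SAA2 made up 49.0% to 76.4% of the counts of the set. The other 8 genes held 0.0208%, 0.0571% and 0.0211% of all counts in siCtrl, against 0.0564%, 0.126% and 0.0992% in siYAP/TAZ, so that without SAA1 and SAA2 the siCtrl replicate 2 library was close to siYAP/TAZ replicate 1 and below siYAP/TAZ replicate 3. The intervals cover counting error only, since no molecular identifiers are described and reads may be copies of one molecule. In a bulk library, more cells that express a gene and more RNA per cell cannot be told apart.

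**Figure D1:**
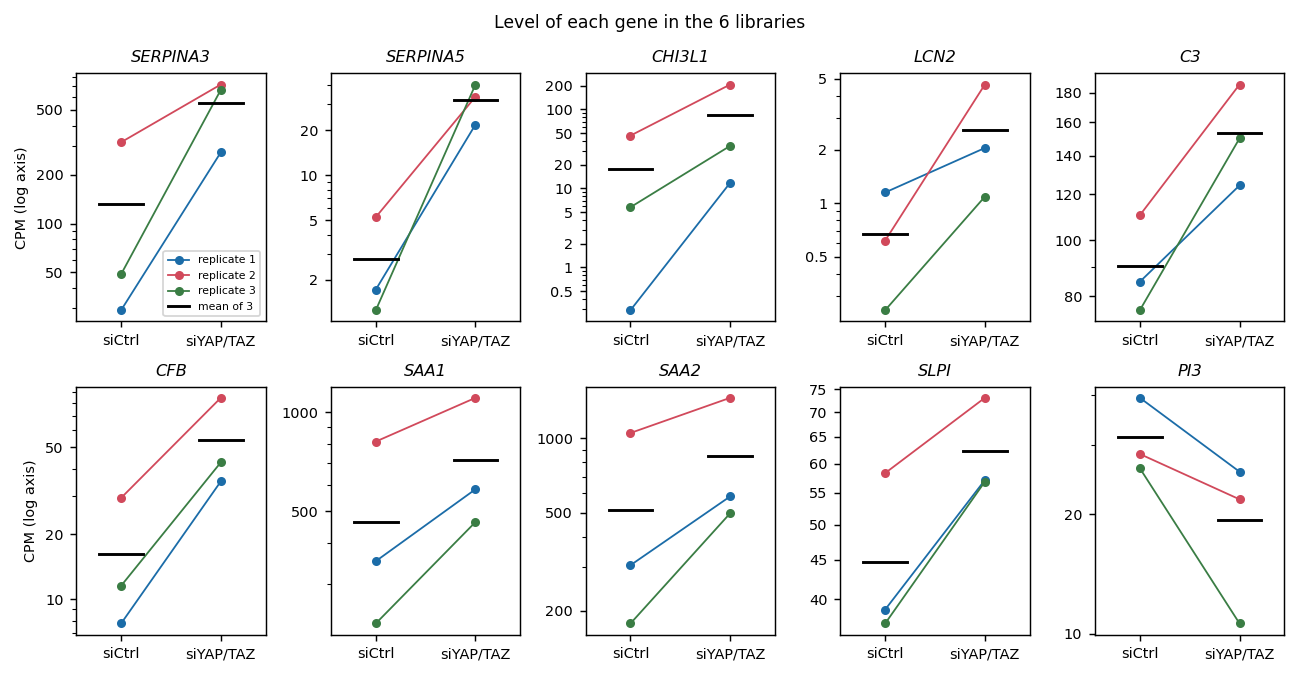
Level of each of the 10 genes (CPM, log axis, own scale per panel) in the 3 siCtrl and 3 siYAP/TAZ libraries. Lines join libraries of the same replicate number and black bars are means of 3. All lines rise from left to right except those of PI3, and replicate 2 (red) is the highest siCtrl library for each gene except LCN2 and PI3.

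SAA1 and SAA2 encode the inducible serum amyloid A proteins, small apolipoproteins of high-density lipoprotein that are classical markers of inflammation. SAA1 (Entrez 6288, chr11:18287807-18291524, plus strand, GRCh37) had 352, 814 and 228 CPM in siCtrl, against 583, 1105 and 463 CPM in siYAP/TAZ. Its level in siYAP/TAZ was 1.65, 1.36 and 2.03 times that in siCtrl of the same replicate number, but siCtrl replicate 2 exceeded siYAP/TAZ replicates 1 and 3. The group means of 465 ± 309 and 717 ± 341 CPM (SD, n = 3) overlap widely, and the fitted log2 fold change was 0.63 (SE 0.45). SAA2 (Entrez 6289, chr11:18260770-18270215, minus strand) had 306, 1052 and 178 CPM in siCtrl, against 582, 1460 and 497 CPM in siYAP/TAZ. The order of the 6 libraries was the same as for SAA1, with siCtrl replicate 2 again above siYAP/TAZ replicates 1 and 3. The ratios within replicate numbers were 1.90, 1.39 and 2.80, and the log2 fold change was 0.73 (SE 0.61) between means of 512 ± 472 and 847 ± 533 CPM.

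The sequences of SAA1 and SAA2 are near copies. The genes lie 17591 bases apart with 0 coding genes between them, on opposite strands. Transcripts SAA1-201 and SAA2-201 match at 494 of 518 aligned bases (95.4%), their open reading frames at 358 of 369 (97.0%) and their last 250 bases at 91.1%, with a longest identical run there of 74 bases. The final 150 coding bases are shown because they lie next to the 3′ end that these libraries sample. They are read from GRCh37 in the direction of transcription, and capitals mark the 10 positions at which the genes differ.
SAA1: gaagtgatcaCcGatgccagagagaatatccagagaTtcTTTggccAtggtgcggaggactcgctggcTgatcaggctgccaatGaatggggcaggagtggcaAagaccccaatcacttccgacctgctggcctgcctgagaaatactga
SAA2: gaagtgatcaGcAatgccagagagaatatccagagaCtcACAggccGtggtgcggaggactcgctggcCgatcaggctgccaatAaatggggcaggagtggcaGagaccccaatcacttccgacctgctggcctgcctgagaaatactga
A read inside an identical stretch cannot be assigned to one gene, so the split of counts between SAA1 and SAA2 is uncertain. SAA2 also overlaps the readthrough gene SAA2-SAA4, whose counts were 1195, 3796 and 811 in siCtrl, against 2980, 4923 and 2179 in siYAP/TAZ. The sum of the SAA2 and SAA4 counts was 95.9% to 97.4% of that number in each library, so the table holds the same reads under overlapping genes. SAA4 encodes the constitutively expressed serum amyloid A of plasma. Its 92, 289 and 70 counts in siCtrl, against 309, 375 and 275 in siYAP/TAZ, gave a log2 fold change of 1.02 (SE 0.51, edgeR adjusted p = 0.331). With the replicate number as a block, SAA4 rose by 1.25 (SE 0.24, edgeR adjusted p = 0.00981).

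SERPINA3 encodes alpha-1-antichymotrypsin, an acute-phase inhibitor of neutrophil cathepsin G and mast cell chymase. Its 250 bases of promoter before the start are shown because of the size of its difference between groups. Here and below, capitals mark matches to an NF-kappaB consensus, to the C/EBP motif TTNNGNAA and to the STAT element TTCNNNGAA, read on both strands in RefSeq promoters of GRCh38.p14.
SERPINA3 promoter, chr14:94612141-94612390, plus strand, GRCh38.p14: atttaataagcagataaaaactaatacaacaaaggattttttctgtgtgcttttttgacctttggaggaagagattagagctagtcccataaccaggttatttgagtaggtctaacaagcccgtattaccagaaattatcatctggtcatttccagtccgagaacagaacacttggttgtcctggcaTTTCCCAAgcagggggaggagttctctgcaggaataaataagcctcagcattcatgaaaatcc
The sequence holds a C/EBP match that begins 63 bases before the start. SERPINA3 (Entrez 12, chr14:95078721-95090392, plus strand, GRCh37) had 29.3, 316 and 48.8 CPM in siCtrl, against 274, 717 and 664 CPM in siYAP/TAZ. Replicate 2 stood far above the other siCtrl libraries, by 8.11 times their mean, and above siYAP/TAZ replicate 1. The siYAP/TAZ level was 9.35, 2.27 and 13.6 times that of siCtrl in replicates 1, 2 and 3. The log2 fold change was 2.07 (SE 0.76) between 131 ± 160 and 552 ± 242 CPM, 2.67 (SE 0.39) with the replicate block, and 3.82 (SE 0.41) without siCtrl replicate 2.

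C3 and CFB encode components of the alternative complement pathway, in which factor B binds activated C3 and forms the convertase that cleaves more C3. C3 (Entrez 718, chr19:6677715-6730573, minus strand) had 84.7, 110 and 75.6 CPM in siCtrl, against 124, 186 and 150 CPM in siYAP/TAZ. The groups do not overlap, and the means were 90.3 ± 18.1 and 154 ± 31.0 CPM. The log2 fold change of C3 was 0.77 (SE 0.19), and 0.94 (SE 0.18) without siCtrl replicate 2. GPR108, which overlaps the 5′ end of C3, had 8 to 9 counts in siCtrl and 20 to 24 counts in siYAP/TAZ, against 295 to 563 counts of C3. CFB (Entrez 629, chr6:31913427-31919863, plus strand) had 7.75, 29.3 and 11.6 CPM in siCtrl, against 34.9, 84.6 and 42.7 CPM in siYAP/TAZ. The CFB groups do not overlap either, with siCtrl replicate 2 just below siYAP/TAZ replicate 1, and the ratios within replicate numbers were alike at 4.50, 2.89 and 3.69. Its log2 fold change was 1.74 (SE 0.47), and 2.46 (SE 0.39) without siCtrl replicate 2. NELFE, whose end on the opposite strand adjoins CFB, had 57 to 82 counts in siYAP/TAZ and 68 to 84 in siCtrl.

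The CFB promoter is shown because it alone of the 5 promoters held both an NF-kappaB and a STAT match. These begin 112 and 92 bases before the start, and a TATA box (TATAAA) begins 30 bases before it.
CFB promoter, chr6:31945845-31946094, plus strand, GRCh38.p14: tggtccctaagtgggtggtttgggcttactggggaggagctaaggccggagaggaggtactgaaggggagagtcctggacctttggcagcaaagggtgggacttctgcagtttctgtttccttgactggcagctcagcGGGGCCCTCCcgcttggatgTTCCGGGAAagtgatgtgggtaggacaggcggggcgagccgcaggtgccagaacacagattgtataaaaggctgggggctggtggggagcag

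CHI3L1 encodes the chitinase-like glycoprotein YKL-40, which binds chitin without cleaving it and is secreted by inflamed epithelium, macrophages and chondrocytes. CHI3L1 (Entrez 1116, chr1:203148059-203155832, minus strand, GRCh37) had 1, 151 and 23 counts in siCtrl, against 52, 625 and 127 counts in siYAP/TAZ. These counts are 0.287, 46.6 and 5.78 CPM against 11.8, 207 and 34.5 CPM. Replicate 2 was the highest library of both groups by a wide margin, 15.4 times the mean of the other siCtrl libraries and 8.92 times that of the other siYAP/TAZ libraries. The siCtrl replicate 2 level of CHI3L1 exceeded siYAP/TAZ replicates 1 and 3. The log2 fold change was 2.28 (SE 1.17) between 17.6 ± 25.3 and 84.3 ± 107 CPM, and 2.46 (SE 0.26) with the replicate block. Its promoter is shown for the closely spaced pair of C/EBP matches, which begin 179 and 163 bases before the start.
CHI3L1 promoter, chr1:203186705-203186954, minus strand, GRCh38.p14: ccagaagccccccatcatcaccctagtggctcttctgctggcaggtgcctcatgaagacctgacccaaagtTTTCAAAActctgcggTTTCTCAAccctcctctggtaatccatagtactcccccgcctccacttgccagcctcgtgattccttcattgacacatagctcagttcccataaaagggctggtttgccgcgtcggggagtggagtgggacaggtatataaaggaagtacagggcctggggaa

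LCN2 encodes lipocalin-2, which starves bacteria of iron by binding their siderophores. LCN2 (Entrez 3934, chr9:130911350-130915732, plus strand) had 4, 2 and 1 counts in siCtrl, against 9, 14 and 4 counts in siYAP/TAZ and was removed by the filter on low counts, so it has no place in the fits below. At 0.251 to 1.15 CPM in siCtrl and 1.09 to 4.63 CPM in siYAP/TAZ it was close to the limit that 3 counts set, and its groups overlap.

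SERPINA5, SLPI and PI3 encode protease inhibitors. SERPINA5 is the protein C inhibitor, a serpin that acts on activated protein C and on plasminogen activators. SERPINA5 (Entrez 5104, chr14:95027779-95059455, plus strand) had 6, 17 and 5 counts in siCtrl, against 96, 101 and 148 counts in siYAP/TAZ. These are 1.72, 5.25 and 1.26 CPM against 21.8, 33.4 and 40.3 CPM. The SERPINA5 groups are far apart, at 2.74 ± 2.18 and 31.8 ± 9.35 CPM, and its log2 fold change of 3.56 (SE 0.45) was the largest of the set in the fit with group only. Without siCtrl replicate 2 it was 4.39 (SE 0.41). SERPINA5 and SERPINA3 lie 19265 bases apart on the same strand of chromosome 14 with 0 coding genes between them. SERPINA4, whose annotated start coincides with that of SERPINA5, had at most 1 count in any library, and SERPINA1, the alpha-1-antitrypsin gene of the same cluster, had 10, 19 and 18 counts in siCtrl, against 9, 16 and 24 in siYAP/TAZ. SERPINA1 gave a log2 fold change of 0.04 (SE 0.47), with a direction that turned in 3 of 6 fits that left out 1 library.

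SLPI is the secretory leukocyte peptidase inhibitor and PI3 is elafin, both whey-acidic-protein inhibitors of neutrophil elastase that lie on chromosome 20. SLPI (Entrez 6590, chr20:43880880-43883205, minus strand) had 38.8, 58.3 and 37.2 CPM in siCtrl, against 57.1, 73.1 and 56.8 CPM in siYAP/TAZ. Its level in siYAP/TAZ was 1.47, 1.25 and 1.53 times that in siCtrl of the same number, a log2 fold change of 0.48 (SE 0.20), and siCtrl replicate 2 was level with siYAP/TAZ replicates 1 and 3. PI3 (Entrez 5266, chr20:43803543-43805185, plus strand) was the exception in the set: it had 39.3, 28.4 and 26.1 CPM in siCtrl, against 25.6, 21.8 and 10.6 CPM in siYAP/TAZ. The PI3 groups do not overlap, although siCtrl replicate 3 and siYAP/TAZ replicate 1 lie side by side, and the log2 fold change was -0.69 (SE 0.31). PI3 and SLPI are 75694 bases apart with the genes SEMG1 and SEMG2 between them, and their transcripts match at 57.9% of aligned bases, with no identical run over 8 bases. WFDC2, a further gene of this family, had at most 2 counts in any library.

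**Figure D2:**
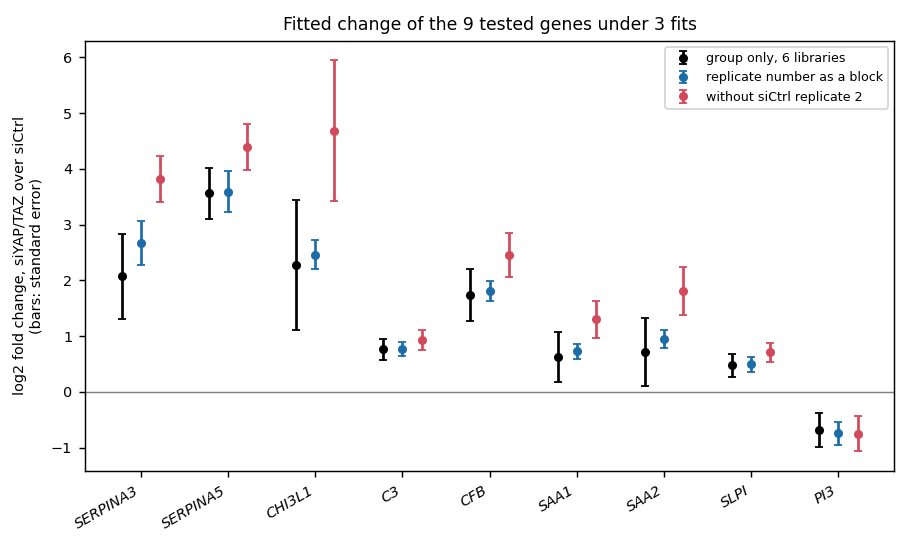
Fitted log2 fold change of siYAP/TAZ over siCtrl for the 9 genes that passed the low-count filter, with standard errors, from the fit with group only (black), with the replicate number as a block (blue) and without siCtrl replicate 2 (red). SERPINA5 is at 3.56 and PI3 at -0.69 in the first fit, and the black bars of SERPINA3, CHI3L1 and SAA2 are the longest.

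Of the 9 genes that passed the filter, 8 had a positive fitted log2 fold change and 1, PI3, a negative one, with a median of 0.77 against -0.00093 over all 12510 genes. These counts describe genes that were chosen on this contrast. With group only, 1 of the 9, SERPINA5, had an adjusted p under 0.05, where 1.96% of all genes did (0.743% higher and 1.22% lower). With the replicate number as a block, all 9 did, 8 higher and PI3 lower, where 10.1% of all genes did (4.66% higher and 5.44% lower). The blocked log2 fold changes not given above were 3.60 (SE 0.36) for SERPINA5, 0.77 (SE 0.12) for C3, 1.81 (SE 0.18) for CFB, 0.73 (SE 0.13) for SAA1, 0.95 (SE 0.17) for SAA2, 0.50 (SE 0.14) for SLPI and -0.74 (SE 0.21) for PI3. DESeq2 (background 4.73%) and the fit with no low-count filter (background 2.9%) each gave 3, SERPINA5, C3 and CFB. The groups did not overlap for SERPINA5, C3 and CFB (higher) and PI3 (lower), where 22.1% of all genes had groups apart (11.0% higher and 11.1% lower). A higher level in siYAP/TAZ in each replicate number was seen in 8 of the 9, where 23.3% of all genes had it, and a lower level in each in PI3, where 22.8% had it. Nothing further is read from these shares, because the contrast chose the genes.

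The count and the sizes in the set depended on single libraries, as did the count over all genes. Without siCtrl replicate 2, 8 of the 9 genes (PI3 apart) had an adjusted p under 0.05, where 12.3% of all genes did, and the median log2 fold change was 1.81. Without siCtrl replicate 3 or siYAP/TAZ replicate 3 the number was 0 (3 genes at an unadjusted p under 0.05 each time). Over all genes, 16 of 12683 and 18 of 12665 passed in these fits, and 1438 and 1351 had an unadjusted p under 0.05. Without any one of the other libraries the number in the set was 1. Over all genes it was 92 without siCtrl replicate 1, and 172 and 71 without siYAP/TAZ replicates 1 and 2. When siYAP/TAZ replicate 2 was left out, the median log2 fold change of the set was 0.42, which was the value of CHI3L1. SAA1 and SAA2 were then at 0.18 and 0.081. SAA1 and SAA2 were at 0.30 and 0.32 without siCtrl replicate 3, and PI3 was at -0.39 without siYAP/TAZ replicate 3. With both disagreeing libraries left out, 8 of the 9 again passed, where 9.29% of all genes did, and the log2 fold changes were 3.58 for SERPINA3, 4.36 for SERPINA5, 2.84 for CHI3L1, 0.78 for C3, 1.99 for CFB, 0.86 for SAA1, 1.16 for SAA2, 0.59 for SLPI and -0.82 for PI3. When the groups were taken from the titles, 0 of the 9 passed in edgeR (0 at an unadjusted p under 0.05). Over all 12510 genes, 0 passed with the titles, and 464 had an unadjusted p under 0.05. The log2 fold change of CHI3L1 turned to -1.19 with the titles.

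For several of the genes replicate 2 was the high library in both groups. Relative to the mean of replicates 1 and 3 of its group, siCtrl replicate 2 was at least 2 times higher for 6 of the 9 genes, where 4.32% of all genes were, and siYAP/TAZ replicate 2 for 4, where 1.31% of all genes were. The 4 genes at least 2 times higher in both were CHI3L1 (15.4 and 8.92 times), SAA2 (4.34 and 2.71), CFB (3.04 and 2.18) and SAA1 (2.80 and 2.11), where 0.4% of all genes were. SERPINA3 and SERPINA5 differed from these: siCtrl replicate 2 stood 8.11 and 3.52 times above its group, and siYAP/TAZ replicate 2 only 1.53 and 1.08 times. C3 (1.38 and 1.36 times) and SLPI (1.54 and 1.28 times) shifted little, and PI3 did not share the pattern (0.867 and 1.20). The height of siCtrl replicate 2 was itself part of how these genes were chosen, so the shares are a description.

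**Figure D3:**
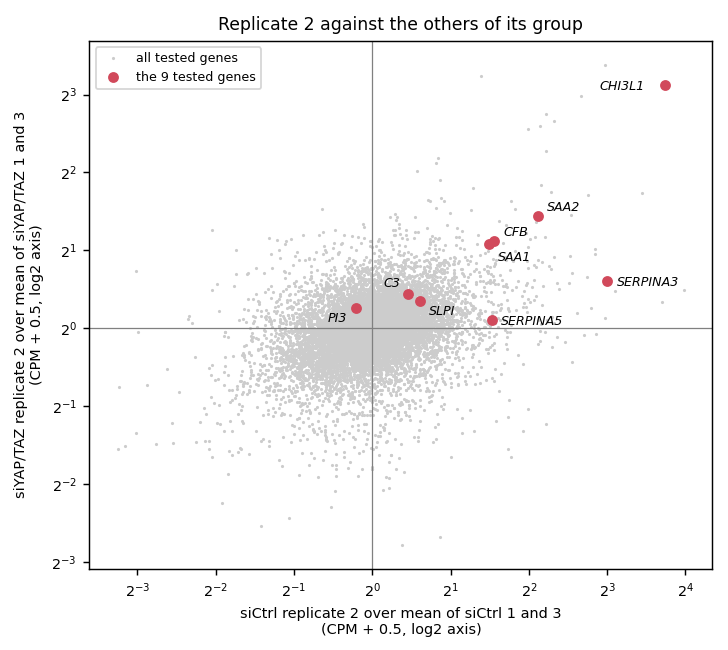
Level in siCtrl replicate 2 over the mean of siCtrl replicates 1 and 3 (x axis) and in siYAP/TAZ replicate 2 over the mean of siYAP/TAZ replicates 1 and 3 (y axis), both as ratios of CPM + 0.5 on log2 axes, so that ratios of low genes are smaller than those of CPM alone. Grey points are all 12510 tested genes and red points the 9 tested genes of the set: CHI3L1, SAA2, CFB and SAA1 lie high on both axes, SERPINA3 and SERPINA5 mainly on the x axis, and PI3 near the centre.

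Other genes of the same response were read from lists written from general knowledge, 209 genes in 8 lists, of which 83 passed the low-count filter. With group only, 3 rose (C9, IL1R1 and EHF) and 1 fell (ITGB2), and the median log2 fold change was 0.23. That is 4 of 83, where 1.96% of all genes passed. For the unadjusted counts given below, 2211 of 12510 genes had an unadjusted p under 0.05 in edgeR. With the replicate block, 19 rose and 7 fell, where 10.1% of all genes passed, and without siCtrl replicate 2 the number was 30. Without siCtrl replicate 3 it was 1 (IL1R1), and without siYAP/TAZ replicate 3 it was 1 (C9), where 16 and 18 of all genes passed. Genes described below as changed with the block alone did not pass with group only.

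Among inducers of the response and their receptors, 14 of 24 genes were tested and 1 rose, IL1R1, the signalling receptor of interleukin-1. IL1R1 had 16.7, 15.7 and 8.80 CPM in siCtrl, against 49.6, 48.6 and 64.2 CPM in siYAP/TAZ, a log2 fold change of 1.99 (SE 0.25, edgeR adjusted p = 0.00879). Its siCtrl replicate 2 did not stand out, and the result was lost without siYAP/TAZ replicate 3 (log2 fold change 1.85, adjusted p = 0.0675). The list median was 0.29. With the replicate block, IL6R, the ligand-binding receptor of IL-6, rose by 1.90 (SE 0.32, edgeR adjusted p = 0.00508), LIFR by 0.92 and the kinase JAK1 by 0.51, while IL1RAP, the co-receptor of IL1R1, fell by 0.78. IL6 itself had 5, 2 and 3 counts in siCtrl, against 2, 1 and 0 in siYAP/TAZ and was not tested.

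Among transcription factors and feedback genes, 21 of 25 were tested and 1 rose, EHF, an epithelial ETS factor. EHF had 39.6, 34.3 and 15.1 CPM in siCtrl, against 112, 113 and 66.4 CPM in siYAP/TAZ, a log2 fold change of 1.72 (SE 0.33, edgeR adjusted p = 0.0350). The groups do not overlap, yet the result was lost whenever a library other than siCtrl replicate 2 was left out (adjusted p = 0.0509 to 0.111). The log2 fold change of EHF was 1.39 to 1.99 in those fits. The related factor ELF3 had 20, 66 and 13 counts in siCtrl, against 57, 104 and 95 in siYAP/TAZ. Its log2 fold change was 1.33 (SE 0.58, edgeR adjusted p = 0.276), and 1.49 (SE 0.35, adjusted p = 0.0250) with the replicate block. NFKBIZ, an NF-kappaB cofactor for secondary response genes, was at 47.4, 63.9 and 30.4 CPM against 73.4, 90.9 and 99.3 CPM, with a log2 fold change of 0.90 (SE 0.25, edgeR adjusted p = 0.0981; 0.0179 with the block). STAT3 (log2 fold change -0.10, SE 0.22, edgeR adjusted p = 0.855), CEBPB (-0.07, SE 0.21, adjusted p = 0.902) and the STAT3 feedback gene SOCS3 (-0.34, SE 0.70, adjusted p = 0.843) did not pass, and their sign was positive without siCtrl replicate 2. CEBPD, a C/EBP factor, had 164, 496 and 193 CPM in siCtrl, against 238, 507 and 371 CPM in siYAP/TAZ (0.39, SE 0.41, edgeR adjusted p = 0.671), so both replicate 2 libraries were at one level. CEBPD passed when siCtrl replicate 2 was left out (1.06, edgeR adjusted p = 0.0253) and with both disagreeing libraries left out (0.77, adjusted p = 0.0423).

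The glucocorticoid-induced genes of this list were looked at singly after their values were seen. TSC22D3, also called GILZ, had 31.3, 306 and 52.5 CPM in siCtrl, against 197, 275 and 380 CPM in siYAP/TAZ, so that siCtrl replicate 2 lay within the siYAP/TAZ range, as it did for SERPINA3. The log2 fold change of TSC22D3 was 1.13 (SE 0.68, edgeR adjusted p = 0.425), 1.74 (SE 0.48, adjusted p = 0.0443) with the replicate block, and 2.75 (adjusted p = 0.000862) without siCtrl replicate 2. FKBP5 was at 478, 858 and 519 CPM in siCtrl, against 918, 976 and 901 CPM in siYAP/TAZ, and passed with the block (0.64, SE 0.15, adjusted p = 0.0201) but not with group only (adjusted p = 0.207). The glucocorticoid receptor gene NR3C1 was at 246, 302 and 258 CPM against 292, 333 and 323 CPM, and PER1 at 31.9, 46.9 and 24.4 against 27.4, 49.3 and 42.7 CPM. Neither passed in those fits. The part of hydrocortisone, present in the medium of both groups, in the replicate 2 values was not tested.

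Among other complement genes, 13 of 38 were tested and 1 rose. C9, the pore-forming terminal component, had 3.16, 6.17 and 4.77 CPM in siCtrl, against 25.4, 23.5 and 36.4 CPM in siYAP/TAZ, and its log2 fold change was 2.59 (SE 0.30, edgeR adjusted p = 0.00678). Without siCtrl replicate 3 its log2 fold change was 2.61 and it did not pass (adjusted p = 0.0573), where 16 of all genes passed. A non-coding gene overlaps C9 on the same strand, so its reads are not certain to be C9 transcripts. C1R and C1S, the proteases of the first component, rose with the block by 1.37 (SE 0.20, edgeR adjusted p = 0.00238) and 0.95 (SE 0.19, adjusted p = 0.0107). C1R had 10.9, 55.5 and 15.8 CPM in siCtrl, against 29.7, 101 and 60.9 CPM in siYAP/TAZ, the order of libraries within each group that CFB also had. Clusterin (CLU), an inhibitor of the membrane attack complex, rose with the block by 1.94 (SE 0.36, adjusted p = 0.00759). The list median was 0.35 with group only.

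Among other acute-phase genes 7 of 25 were tested, with a median log2 fold change of 0.53, and 0 passed in edgeR (3 at an unadjusted p under 0.05, and 1 in DESeq2). With the block SAA4 and CHI3L2, a relative of CHI3L1, rose. CHI3L2 had 4, 5 and 0 counts in siCtrl, against 16, 26 and 15 in siYAP/TAZ, and a blocked log2 fold change of 2.61 (SE 0.59, edgeR adjusted p = 0.0196). Of the other antimicrobial genes, 3 of 26 were tested with a median of 1.56, and 0 passed in edgeR (3 at an unadjusted p under 0.05, and 1 in DESeq2). Lactoferrin (LTF), which like lipocalin-2 withholds iron, had 4, 29 and 1 counts in siCtrl, against 17, 204 and 30 in siYAP/TAZ, with replicate 2 the highest of each group by a wide margin, as for CHI3L1. LTF rose with the block by 2.95 (SE 0.37, edgeR adjusted p = 0.00119), against an adjusted p of 0.233 with group only. The mucin MUC1 rose with the block by 1.59 (SE 0.14, adjusted p = 0.000208).

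Other protease inhibitors did not move in one direction. In that list 11 of 36 were tested, with a median of -0.17, and 0 passed in edgeR (3 at an unadjusted p under 0.05, and 0 in DESeq2). With the block the cystatins CSTA and CSTB rose by 0.39 and 0.67, while SERPINB1, SERPINB3 and SERPINB4, intracellular serpins of epithelium, fell by 0.76, 1.52 and 0.96. SERPINB3 had 23, 105 and 26 counts in siCtrl, against 10, 43 and 4 in siYAP/TAZ, so replicate 2 was the highest of each group as for CHI3L1, with the opposite sign between groups. SERPINB3 and SERPINB4 are near copies of each other, and their split is uncertain. Of the proteases, 7 of 19 were tested with a median of 0.09, and 0 passed in edgeR (0 at an unadjusted p under 0.05, and 0 in DESeq2). Among receptors of the encoded proteins 7 of 16 were tested with a median of -0.40, and 1 fell. ITGB2, the beta-2 integrin chain of complement receptor 3, had 24, 31 and 38 counts in siCtrl, against 6, 3 and 5 in siYAP/TAZ, a log2 fold change of -2.76 (SE 0.36, edgeR adjusted p = 0.0101). It did not pass without siCtrl replicate 3 (adjusted p = 0.0703) or siYAP/TAZ replicate 3 (0.0752), and the antisense gene ITGB2-AS1, at 1 to 9 counts, overlaps it. With the block PLSCR1, a membrane protein reported to bind SLPI, fell by 0.66. CRIM1, which was in the list without a named product of the set that it binds, fell by 0.63 with the block.

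**Figure D4:**
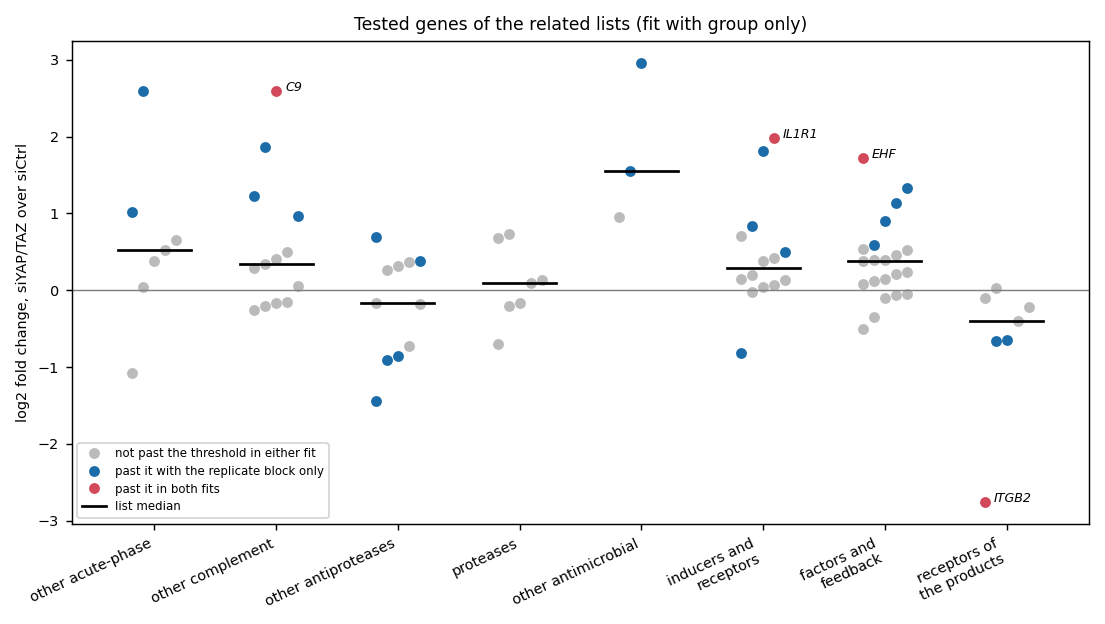
Log2 fold change of siYAP/TAZ over siCtrl, from the fit with group only, for the 83 tested genes of the 8 related lists. Points are genes, black bars list medians, red points pass in both fits (C9, IL1R1, EHF, ITGB2), blue points pass with the replicate block alone, and grey points pass in neither. List medians lie between -0.40 and 1.56.

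A list of interferon-stimulated genes was read beside these, since transfected RNA can evoke an interferon response. Of 15 genes, 7 were tested with a median log2 fold change of 0.61, and 0 passed in edgeR (5 at an unadjusted p under 0.05, and 0 in DESeq2). Over all genes, 2211 of 12510 had an unadjusted p under 0.05 in edgeR. With the block 2 rose and 1 fell. The part of such a response in the levels of the 10 genes was not tested.

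A profile of the set was made as the mean of the standardised log2 CPM of the 9 tested genes, which was -0.86, 0.33 and -0.99 in siCtrl, against 0.23, 1.07 and 0.21 in siYAP/TAZ. It places siCtrl replicate 2 between siYAP/TAZ replicates 1 and 2. Among 12448 other genes the 5 most like it by Pearson r over the 6 libraries were HMBOX1 (0.994), LYST (0.994), SLITRK5 (0.994), TRMT9B (0.993) and HOMEZ (0.991). The points share library and depth, and with so many genes compared over 6 libraries such values are a description only. LYST, for example, was at 46.0, 76.2 and 41.2 CPM in siCtrl, against 67.1, 107 and 73.4 CPM in siYAP/TAZ.

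Promoter sequence was matched for 5 of the 10 genes: CHI3L1, CFB, LCN2, SERPINA5 and SERPINA3. C3, SAA1, SAA2, SLPI and PI3 were not matched. In windows of 300 bases around the start, the NF-kappaB consensus was in 2 of the 5 (CFB and LCN2) and in 11.3% of 35116 promoters of the same length. The C/EBP motif TTNNGNAA was in 3 (CHI3L1, LCN2 and SERPINA3) and in 36.8% of all. The STAT motif TTCNNNGAA was in 2 (CFB and SERPINA5) and in 7.66% of all. The TEAD motif GGAATG was in 3 (CFB, LCN2 and SERPINA5) and in 14.0% of all, overlapping the NF-kappaB match in LCN2 and the STAT match in SERPINA5. The AP-1 motif TGANTCA was in 1 (LCN2) and in 7.71% of all, the TATA box was in 2 (CHI3L1 and CFB) and in 11.5% of all, and the palindromic consensus of the glucocorticoid receptor was in none of the 5 and in 0.39% of all. With 5 promoters these are descriptions of letters, not of binding.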

How the data were processed

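The libraries were made with the QuantSeq 3′ mRNA-Seq FWD kit, which reads the 3′ end of polyadenylated RNA, so levels of different genes are not compared per length. The authors deposited unnormalised counts by Entrez ID, one column for each of the 6 libraries. The submitters' processing notes name cutadapt 4.2, Bowtie2 2.3.5.1 and hg19. The annotation and the use of strand are not given in the sources used here. No row lacked a gene ID and no value column was left out. Symbols came from the RefSeq gene table of GRCh38.p14 (23308 IDs, 99.7% of counts), gene positions from GENCODE 44 lifted to GRCh37, and promoters from RefSeq (GRCh38.p14).

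Differences were fitted in edgeR 4.0.16 (R 4.3.3) by quasi-likelihood, after filterByExpr and TMM scaling, with group as the only term. P-values were adjusted by Benjamini-Hochberg over the 12510 genes left by the filter (99.5% of counts), and an adjusted p under 0.05 was the threshold. DESeq2 1.42.0 was an alternative. The scripts were tested on simulated counts. CPM are TMM-scaled and errors are SD over 3 libraries. The study's methods call its RNA-Sequencing replicates biological, in a passage on another library kit, and the labels of these libraries do not name separate cultures, so p-values measure the spread between these libraries, part of which may be technical. Replicates differed by more than sampling noise: within groups the chi-square over genes was 5.37 to 17.4 per degree of freedom.

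The replicate numbers of the description were checked for pairing. The titles number several libraries otherwise, and no fit used the title numbers as a block. Deviations from group means correlated across genes between same-numbered libraries with r of 0.42, 0.35 and 0.13. Each was over 0.1, and the numbers were used as pairs in the block. Values between differently numbered libraries are not given beside them. Deviations cancel out within a group, so these values depend on each other, and a shift shared by a single pair can raise all of them. Blocked values are given where they change a call.

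The members, lists and tests were chosen with earlier results of these data known. Named genes were the 10 members, YAP1 and WWTR1, up to 4 genes per list and direction past the threshold, SERPINA1, WFDC2, IL6, STAT3, SOCS3, CEBPB, CEBPD, NFKBIZ, ELF3, and the 5 genes most like the set's profile. Genes named from the blocked fit, and neighbours of members, were chosen after their values were seen.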

Additional observations from a re-analysis of the deposited data

How the results depend on the processing

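Numbers of genes past the threshold moved with the pairing, the labels, the tool, the filter and single libraries. Over all genes, 245 passed with group only. The number was 592 with DESeq2, 556 with no low-count filter, 1263 with the replicate block, 1183 with both disagreeing libraries left out, and 16 (without siCtrl replicate 3) to 1579 (without siCtrl replicate 2) with 1 library left out, with 18 when siYAP/TAZ replicate 3 was left out. Among the 10 genes, 1 became 3 with DESeq2, 3 with no low-count filter, 9 with the block, 8 with both libraries left out, and 0 to 8 with 1 library left out. In the related lists, 4 of 83 tested genes became 10 of 83, 11 of 168, 26 of 83 and 25 of 82 in the same order. With 1 library left out the number was 1 to 30 of 84. With groups taken from the titles, 0 genes passed in edgeR (464 of all genes at an unadjusted p under 0.05, 0 of the set, and 1 of the related lists). With the titles, the log2 fold change turned to -1.19 for CHI3L1, -0.023 for CSTB, -1.70 for LTF, 0.36 for SERPINB1 and for SERPINB3, 0.25 for SERPINB4, 0.059 for CRIM1, 0.15 for STAT3, 0.42 for SOCS3 and 0.21 for CEBPB. With both disagreeing libraries left out it was 0.052 for STAT3, 0.10 for SOCS3 and 0.12 for CEBPB. With 1 library left out, the sign turned for SERPINA1 (-0.32 to 0.43, negative without replicate 1 of siCtrl and without replicates 2 and 3 of siYAP/TAZ), STAT3 (-0.23 to 0.18) and SOCS3 (-0.89 to 0.65), both positive when replicate 2 of siCtrl or replicate 1 of siYAP/TAZ was left out, and for CEBPB (-0.27 to 0.19) and SERPINB4 (-2.39 to 0.32), both positive without siCtrl replicate 2. The cause was not tested. With the 250 bases before the start alone, the TEAD motif was in 2 of 5 promoters in place of 3. RLE scaling, library size alone and a mean of at least 50 counts left 1 of the set past the threshold. The block also took LYST, GPR108 and SAA2-SAA4 past the threshold. Depth limits LCN2, at 1 to 14 counts, and CHI3L1, at 1 count in siCtrl replicate 1.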
